A study of Mus musculus with 2 samples.

Results

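Classical monocytes are the circulating, Ly6C-high precursors that leave the bone marrow with the help of the chemokine receptor Ccr2 and enter inflamed tissue, where they can become macrophages or dendritic-like cells. Non-classical monocytes, which largely derive from them, patrol the vessel wall. Interferons act on both through their receptors, JAK kinases and STAT and IRF transcription factors, and switch on a large set of antiviral genes that monocytes express strongly.

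The classical monocytes described here were selected on measured counts in single-cell RNA libraries of CD45+ mouse liver cells. A cell had to show at least 3 of Ly6c2, Ccr2, Chil3, F13a1, Vcan and Fn1 and at least 1 UMI (1 counted molecule) of Csf1r, the receptor that keeps monocytes alive. It could show at most 2 of the non-classical genes Ace, Treml4, Spn, Adgre4, Eno3 and Cd300e, at most 1 UMI of C1qa, C1qb and C1qc together, and none of Cd79a, Cd3e, Flt3, Siglech and Csf3r. This rule took 616 of 35399 kept cells, 526 in the untreated library and 90 in the ConA library.

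Both libraries come from wild-type C57BL/6J mice, with the leukocytes taken from liver on a Ficoll gradient and sorted for CD45. Concanavalin A (ConA) is a plant lectin that activates T cells. Treated mice received 10 mg/kg into a vein 1 time a week for 3 weeks, a schedule meant as a model of immune tolerance, and the controls were untreated mice of the same age. Each group is 1 library, and the sources used here do not say how many mice each holds. No difference therefore has a replicate check or a p-value, and each one describes these libraries. Where 2 values stand together, the first is the untreated and the second the ConA library. Levels are UMIs per 1000000 UMIs summed over the classical cells of a library (CPM). Log2 ratios are of ConA CPM plus 5 over untreated CPM plus 5. Bracketed ranges are exact 95% intervals of the plain ratio or share, without that constant, and cover counting error only. For a gene list, the range joins the median of its members' lower bounds to the median of their upper bounds. Such a range is not an interval of the list median.

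Classical cells had median depths of 5134 and 5727 UMIs and held 2904561 and 559945 UMIs in all, so 1 UMI in the ConA cells is about 1.79 CPM. Of the barcodes, 82 occurred in both libraries, among them 2 classical untreated cells and no classical ConA cell. The cells carried monocyte genes that the rule did not use. Lyz2, the lysozyme of myeloid cells, stood at 15971 and 15936 CPM. Its list of 20 classical monocyte genes outside the rule summed to 35177 and 26358 CPM. In gated non-classical monocytes the sum was 21633 and 11201 CPM, and in C1q macrophages 26569 and 27248 CPM. Unlike Lyz2, 9 of 19 members with at least 10 CPM in 1 library were at least 2-fold lower in ConA classical cells, against 4.76% of all genes at that minimum. The 15 non-classical genes outside the rule summed to 1683 and 1536 CPM, against 7107 and 8593 CPM in non-classical monocytes gated in the same libraries. Of 14 measured in classical cells, 3 were at least 2-fold higher and 1 lower in the ConA library, against 5.75% and 4.76% of all genes at that minimum. Cx3cr1 of this list was seen in 32.3% and 62.2% of classical cells and in 72.6% and 58.1% of non-classical cells. Of the 12 liver macrophage markers, Clec4f, Timd4, Vsig4 and Marco were at 0 in both libraries. The whole list summed to 1013 and 970 CPM, against 3474 and 10947 CPM in macrophages gated on the C1q genes. Neutrophil markers summed to 486 and 280 CPM, against 12624 and 23673 CPM in neutrophils.

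Interferon-stimulated genes had the lowest median ratio of the lists in these cells. Promoter stretches of Isg15, Ifit1, Ifit3 and Bst2, of Ifi208 of the interferon-inducible p200 family and of the chemokine gene Cxcl10 are shown. Each holds the element marked below, as not all interferon-stimulated genes do. The stretches lie in the 250 bases before the gene's start and come from RefSeq on GRCm38.p6, 5′ to 3′ along the gene. RefSeq's build differs from that of the counts, so the coordinates belong to GRCm38.p6. Capitals mark matches to GAAANNGAAA, the core of the interferon-stimulated response element bound by STAT and IRF factors, which was searched on both strands. Matches can overlap.

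Isg15: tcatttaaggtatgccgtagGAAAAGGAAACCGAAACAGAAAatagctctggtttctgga

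Ifit1: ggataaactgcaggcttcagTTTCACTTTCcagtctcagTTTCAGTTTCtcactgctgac

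Ifit3: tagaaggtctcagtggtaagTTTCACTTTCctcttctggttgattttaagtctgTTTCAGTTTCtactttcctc

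Ifi208: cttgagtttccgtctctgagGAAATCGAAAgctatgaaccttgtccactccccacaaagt

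Bst2: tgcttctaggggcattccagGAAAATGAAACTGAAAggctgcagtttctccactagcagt

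Cxcl10: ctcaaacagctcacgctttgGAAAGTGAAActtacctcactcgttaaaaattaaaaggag

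The Isg15 stretch is chr4:156200857-156200916 (minus strand), Ifit1 chr19:34640765-34640824 (plus strand), Ifit3 chr19:34583353-34583426 (plus strand), Ifi208 chr1:173673587-173673646 (plus strand), Bst2 chr8:71537563-71537622 (minus strand) and Cxcl10 chr5:92349063-92349122 (minus strand). Isg15 held 3 overlapping matches, starting 78, 72 and 66 bases before its start, whereas Cxcl10 held 1, at 213 bases. Slfn4, Oasl1, Irf7, Ifit2 and Phf11d, among the genes with the lowest ratios, held no match in this window. Ifit3b and Ifi213 carry the same letters as the stretches of Ifit3 and Ifi208. Of the 30 interferon-stimulated genes found in the promoter table, 14 (46.7%) held a match, against 936 of 27025 genes (3.46%) in the whole table. The element was also present in 11 of 18 interferon-gamma-induced genes (61.1%). A match describes letters in this window and not a bound site. In all, 10 members of the interferon-stimulated list were not in the table under their symbol.

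Classical monocytes made up a smaller share of the ConA library. They were 526 of 17632 kept cells (2.98%, 2.74 to 3.25) in the untreated and 90 of 17767 (0.507%, 0.408 to 0.622) in the ConA library, a 5.89-fold lower share (log2 ratio -2.56, -2.90 to -2.23). Non-classical monocytes were 0.539% and 0.349% (log2 ratio -0.63, -1.11 to -0.15). Among the 3 gated classes of monocytes and C1q macrophages together, the classical share was 78.2% (74.8 to 81.2) and 53.9% (46.0 to 61.6). The classical intervals do not overlap on either denominator. Neutrophils were 22.7% and 3.95% of kept cells, so both myeloid classes had lower shares. The Ficoll gradient, which separates granulocytes by density, and the CD45 sort precede these counts, and their part in the shares was not tested. Shares within a library move with every other class, and T cells were 13.7% and 33.7%.

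**Figure D1:**
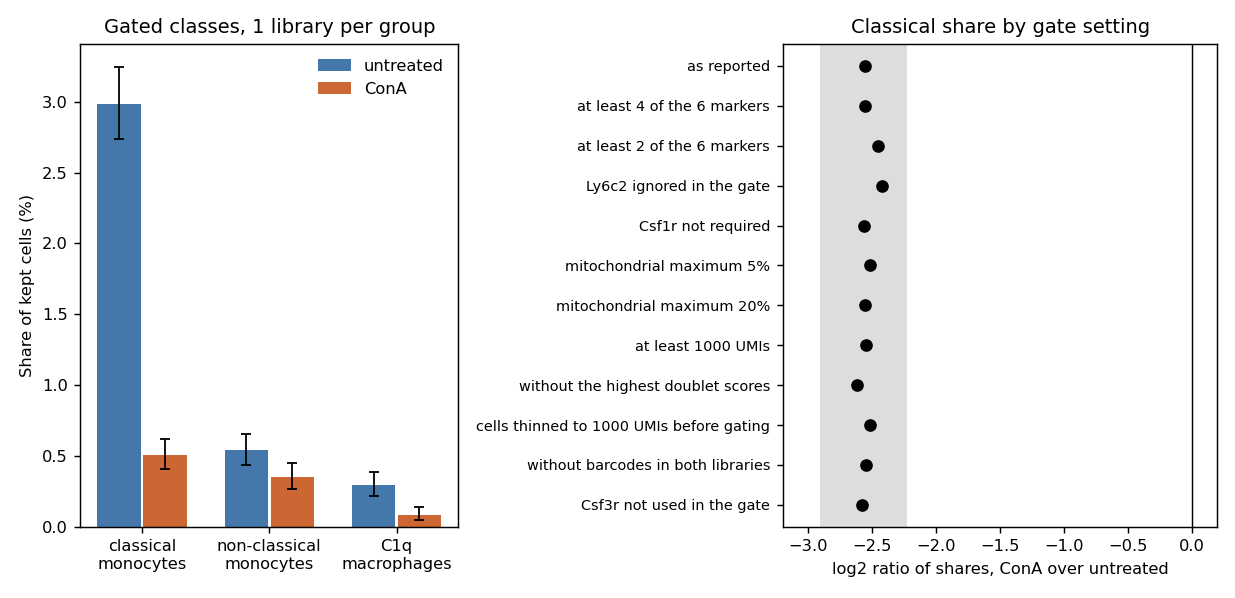
Left, share of kept cells (%) in each gated class for the untreated and the ConA library, with exact 95% intervals as bars. Right, log2 ratio of the classical share under each other setting of the rule, with the grey band as the interval of the reported value; every point lies between -2.62 and -2.42.

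Most cells with the markers failed the rule on another condition. With only 3 of the 6 markers and Csf1r required, 2776 cells (15.7%) of the untreated and 613 (3.45%) of the ConA library would pass, a log2 ratio of -2.19 (-2.32 to -2.06). Csf3r, the receptor for the neutrophil growth factor G-CSF, which monocytes can also express, was detected in 66.3% and 64.8% of them. It was the sole failed condition in 1035 (37.3%) and 173 (28.2%). Leaving Csf3r out of the rule gave 1561 and 263 classical cells and a log2 ratio of shares of -2.58. The number of classical cells thus depended on the rule, while the ratio without Csf3r in it stayed within the interval of -2.90 to -2.23. Among the classical cells, 51 (9.70%) and 12 (13.3%) were among the highest doublet scores of their library, against 14.1% and 14.2% of all kept cells.

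How well cells met the rule varied. Among cells meeting all conditions but the marker count, 93 untreated and 24 ConA cells showed 2 of the 6 markers, just outside, and 99 and 17 showed 3, just inside. All 6 were seen in 185 untreated cells (35.2% of the class) and 17 ConA cells (18.9%). Lyz2 was higher with more markers in both libraries, from 7032 and 7459 CPM at 3 markers to 18532 and 20061 CPM at 6. The summed MHC class II list went the other way, from 23158 to 5536 CPM in the untreated and from 11502 to 4309 CPM in the ConA library. Median depth was also higher with more markers in the untreated cells, from 2576 UMIs at 3 markers to 6416 at 6, and its part in these gradients was not tested.

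**Figure D2:**
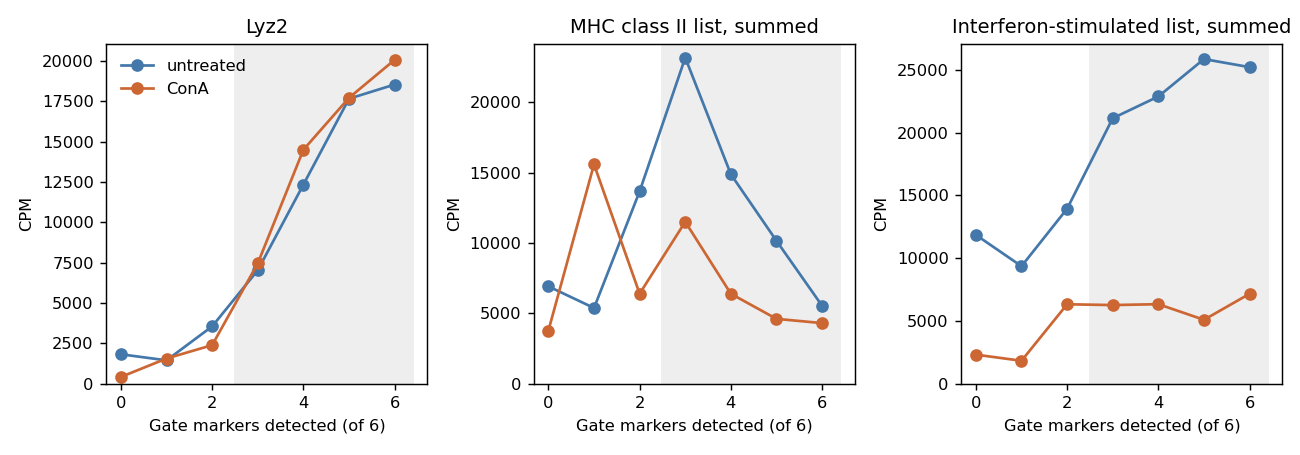
Level in CPM (y axis) of Lyz2, of the summed MHC class II list and of the summed interferon-stimulated list in cells grouped by the number of the 6 rule markers they show (x axis), with all other conditions met; the shaded part holds the classical monocytes. Lyz2 lines of the libraries lie together, whereas the interferon-stimulated lines stay apart at every marker count.

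The 6 markers chose the cells, so their levels are a description. Ly6c2, the gene of the Ly6C antigen that names these cells, stood at 4323 and 1236 CPM and was seen in 99.0% and 81.1% of cells. Chil3, a chitinase-like protein of young monocytes, stood at 1988 and 895 CPM and Vcan, a matrix proteoglycan, at 370 and 200 CPM. Fn1, fibronectin, went the other way with 554 and 1364 CPM, as did F13a1, the clotting factor XIII A chain, with 983 and 1575 CPM. Ccr2 stood at 1202 and 1118 CPM, with a ratio interval of -0.23 to 0.02 on the log2 scale. The markers thus moved apart rather than together. When Ly6c2 was ignored in the rule, the share ratio was -2.42.

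Over the whole transcriptome, 4108 genes had at least 50 CPM in 1 library and at least 100 UMIs in all. Of these, 233 (5.67%) were at least 2-fold lower and 88 (2.14%) at least 2-fold higher in the ConA library, and the median log2 ratio was 0.07. The gene lists below use a lower minimum, 10 CPM in 1 library, which 8785 genes passed. Of those, 4.76% were at least 2-fold lower and 5.75% at least 2-fold higher, with a median log2 ratio of 0.13, and each list's counts are read against these shares. Lists were chosen with earlier results of these data known, so their counts describe these libraries only. Of the 233 lower genes, 44 are on the interferon-stimulated or interferon-gamma-induced list. A match to the response element was present upstream of 45 of the 186 lower genes in the promoter table (24.2%), of 1 of 70 higher genes (1.43%) and of 155 of 3304 tested genes (4.69%). Without the members of the interferon-stimulated list, it was present in 31 of 158 lower genes (19.6%). Other interferon genes were not taken out of these 158, neither the interferon-gamma-induced list nor Ifi208 and Ifi213, which each hold a match.

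Interferon-stimulated genes were the group with the lowest median log2 ratio of the lists described. All 40 measured members were at least 2-fold lower in the ConA library, against 4.76% of all genes at the list minimum, with a median log2 ratio of -2.40. The list was drawn up with earlier results of these data known, so this count is a description and not a test. Isg15, a ubiquitin-like protein that is attached to other proteins, stood at 1465 CPM in the untreated and 116 CPM in the ConA cells, 12.6-fold lower (log2 ratio -3.60, -4.03 to -3.30). The antiviral gene Ifit3 stood at 494 and 23.2 CPM (log2 ratio -4.14, -5.32 to -3.63). Irf7, the factor that amplifies type I interferon production, stood at 783 and 66.1 CPM (log2 ratio -3.47, -4.08 to -3.10). The intervals of these genes lie far below 0. Oasl1, which restrains Irf7 translation, stood at 205 and 7.14 CPM. Slfn4, a schlafen gene of myeloid cells, stood at 420 and 16.1 CPM, and Bst2, which tethers budding viruses, at 1029 and 148 CPM. Ifit3 and Ifit3b, and Ifi208 and Ifi213 of the p200 family, are close copies, and how reads shared by such copies were counted was not stated, so their separate values are uncertain.

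The lower level was seen across the cells of the class. After thinning each cell to 1000 UMIs, untreated classical monocytes held a median of 23 interferon-stimulated UMIs (lowest 2, highest 45, 505 cells) and ConA cells a median of 6 (lowest 0, highest 37, 89 cells). A total of 94.5% of untreated and 11.2% of ConA cells held at least 10. The ranges overlap, but the spans from the lower to the upper quartile do not, with 17 to 28 UMIs against 3 to 7. Isg15 was detected in 64.6% (60.2 to 68.7) and 6.74% (2.51 to 14.1) of the thinned cells, and in 86.9% and 21.1% of the unthinned ones. In B cells, which show a lower level of the list, the thinned shares were 18.7% and 1.73% at median depths of 2955 and 3331 UMIs. The difference was thus seen in B cells too. With free RNA subtracted at 7.82% and 7.56% of the library's level, taken from Igkc, the median log2 ratio of the list was -2.41. Other marker genes gave other shares, 26.1% and 21.0% for the B cell gene Ighm, 9.99% and 9.69% for the T cell gene Trbc2 and 27.2% and 10.9% for the hepatocyte gene Alb. With the share from Ighm, an alternative chosen after seeing the data, the median was -2.40.

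**Figure D3:**
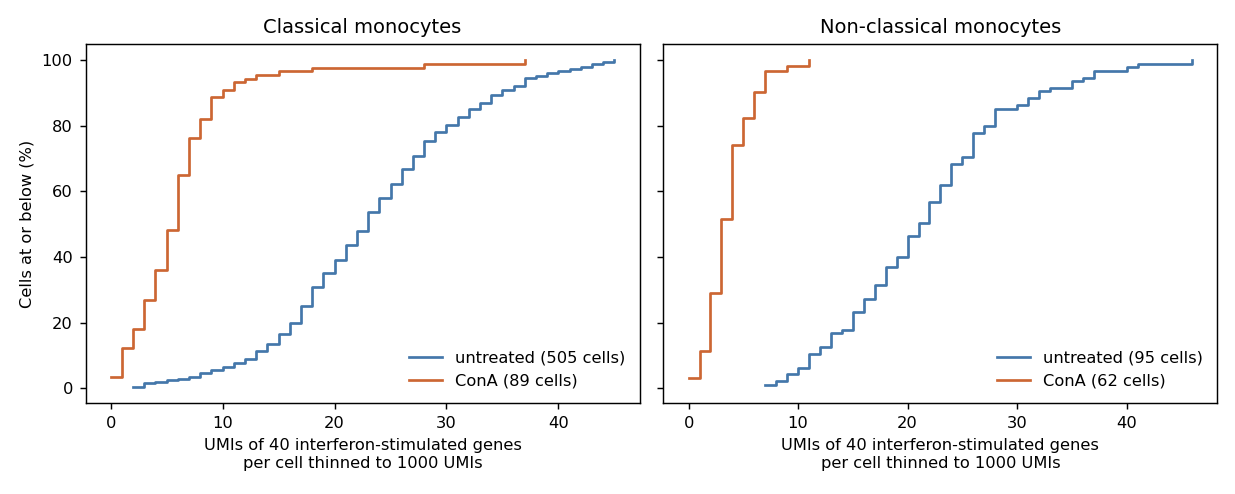
Cumulative share of cells (%) against the number of interferon-stimulated UMIs per cell after thinning to 1000 UMIs, for classical monocytes (left) and non-classical monocytes (right) of each library. The ConA curves lie to the left, with medians of 6 and 3 UMIs against 23 and 21 in the untreated cells.

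Non-classical monocytes, the class most like them, gave the same direction for each of the 40 members, with a median log2 ratio of -2.96. Isg15 stood at 928 and 26.8 CPM there and Ifit3 at 424 and 7.65 CPM. The MHC class II list had a median log2 ratio of -0.63 (-1.02 to -0.30) in classical monocytes. Of 15 measured members, 2 were at least 2-fold lower and 0 higher, against 4.76% and 5.75% of all genes at the list minimum. In non-classical monocytes the median was 0.60, with a range of the same kind from -0.34 to 1.23, on both sides of 0. Neither range tests a list median. H2-Eb1, a class II chain, stood at 638 and 252 CPM in classical and 502 and 1051 CPM in non-classical cells, and Cd74, the invariant chain, at 2905 and 1695 CPM against 1888 and 4499 CPM. Per cell, the median level was lower in both classes, only slightly so in non-classical cells. After thinning to 1000 UMIs the median was 6 and 4 class II UMIs in classical and 5 and 4 in non-classical cells. The classical mean was 9.94 and 6.26 UMIs, and 24.0% and 15.7% of classical cells held at least 10. H2-Aa, another class II chain, was detected in 28.1% and 30.3% of the thinned classical cells, so it was not lower by detection. The non-classical mean was higher in the ConA library, at 6.02 and 8.85 UMIs, and 10.5% and 19.4% of cells held at least 10. The highest non-classical cells also held more there, with at most 57 and 82 UMIs, so the higher summed level went with the upper tail of cells. The comparison between classes has no test, because each is 1 library a group. Not requiring Csf1r moved the classical MHC class II median to -0.19. In the untreated classical cells 3 cells held 17.2% of H2-Eb1 UMIs and in the ConA cells 3 held 43.3%.

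**Figure D4:**
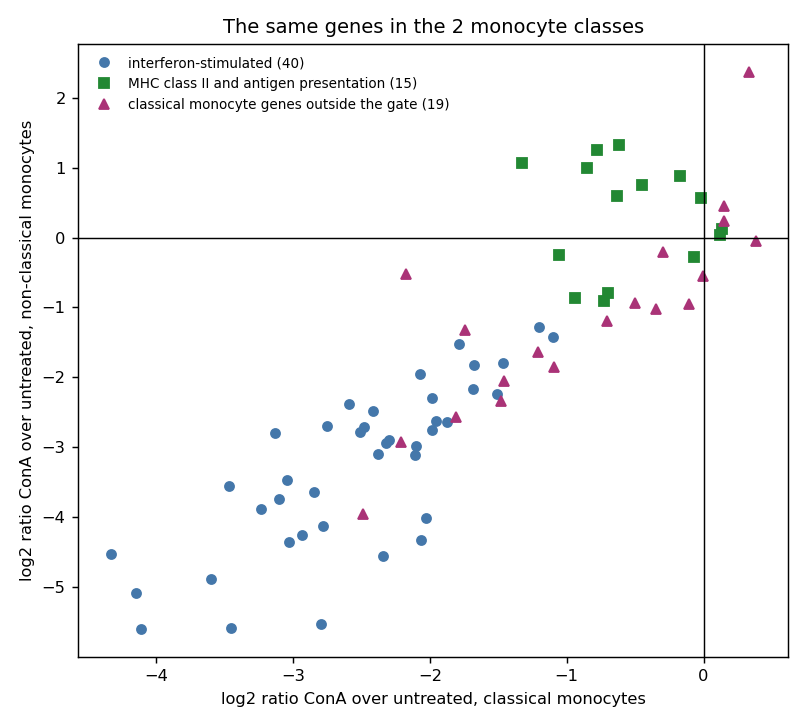
Each point is a gene, with its log2 ratio of ConA over untreated in classical monocytes (x axis) and in non-classical monocytes (y axis), for the interferon-stimulated, MHC class II and classical monocyte lists. Interferon-stimulated points lie in the lower left. H2-Eb1, a class II gene, lies in the upper left (-1.32 and 1.06).

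Genes of the interferon-gamma-induced list differed less. Of 20 measured members, 6 were at least 2-fold lower, above the 4.76% of all genes at that minimum, and 1 higher, near the 5.75%. The median log2 ratio was -0.79. The immunity-related GTPase Irgm1 stood at 169 and 48.2 CPM and the guanylate-binding protein Gbp7 at 109 and 30.4 CPM. Cxcl9, a ligand that draws T cells through CXCR3, stood at 46.1 and 543 CPM, the other way. A total of 94.1% of its ConA UMIs came from 3 cells, and 6.67% of ConA cells showed it at all. In the untreated library 4 cells held 96.3% of its UMIs. Without the cells rich in Cxcl9, granule protease, cell cycle or haemoglobin UMIs its log2 ratio was 0.51. Of 18 measured receptor and signalling genes of the interferons, 1 was 2-fold lower, a share near the 4.76% of all genes, so the list did not stand apart by count. That gene was Sting1, the adaptor of cytosolic DNA sensing, at 76.4 and 33.9 CPM. The receptor chains Ifnar1 (75.4 and 80.4 CPM), Ifnar2 (256 and 270 CPM) and Ifngr1 (333 and 389 CPM) had log2 ratios of 0.09, 0.07 and 0.22.

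Genes of the classical state outside the rule were lower as a group. Of 19 measured, 9 were at least 2-fold lower, against 4.76% of all genes, and 0 at least 2-fold higher, with a median log2 ratio of -0.71. The same list also had lower medians in the other gated classes. In non-classical monocytes the median was -1.02, with 10 of 19 at least 2-fold lower and 1 higher. In C1q macrophages it was -1.11, with 10 lower and 5 higher, from 52 and 15 cells. The list summed to 26569 and 27248 CPM in those macrophages. Shares of all genes past 2-fold were not computed for these 2 classes. In classical monocytes Fcgr1, the high-affinity IgG receptor CD64, stood at 403 and 67.9 CPM (log2 ratio -2.49, -3.08 to -2.11). Plac8 stood at 5745 and 2084 CPM and Ms4a4c at 1505 and 321 CPM. Lyz2 did not share in this, and Itgam, an integrin of myeloid cells, stood at 280 and 311 CPM.

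Of 18 measured genes of macrophage maturation and lipid handling, 1 was at least 2-fold lower and 1 higher, both near the shares of 4.76% and 5.75% of all genes, with a median log2 ratio of -0.18. Axl, a receptor for the clearance of dead cells, stood at 76.4 and 21.4 CPM. Of 12 Fc receptor and complement genes, 4 were lower and 0 higher, among them Fcgr4, an activating IgG receptor, at 54.7 and 12.5 CPM, while C3 stood at 212 and 284 CPM. The dendritic-like list had 1 lower and 1 higher of 14 measured, also near these shares. Its members overlap the class II list, and Cd209a, a lectin of monocyte-derived dendritic cells, stood at 46.1 and 69.6 CPM, with 66.7% of its ConA UMIs in 3 cells. The neutrophil-like list had 3 lower and 7 higher of 16 measured, with a median log2 ratio of -0.31. Without each gene's richest 1 in 30 cells 4 were lower and 3 higher, so part of the higher count came from few cells. S100a9 of that list stood at 724 and 200.02 CPM, against 41231 and 54186 CPM in neutrophils, and was seen in 95.4% and 65.6% of classical cells. Whether it belongs to these cells or to free neutrophil RNA was not tested. Among adhesion molecules and chemokine receptors, 7 were lower and 4 higher of 24 measured, both above the shares of all genes, with a median log2 ratio of -0.08.

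Among secreted signals, the inflammatory cytokine list had a median log2 ratio of -0.71. Of 15 measured members, 5 were at least 2-fold lower and 0 higher, against 4.76% and 5.75% of all genes at the list minimum. Il1b stood at 153 and 37.5 CPM, Il18 at 128 and 30.4 CPM and Tnf at 84.4 and 33.9 CPM. Il1b was much higher in neutrophils, at 2234 and 1143 CPM, so free neutrophil RNA could reach these cells, and its part in the difference was not tested. Chemokines had no shared direction, with 4 lower and 3 higher of 13 measured, both above the 4.76% and 5.75% of all genes. Cxcl2, which draws neutrophils, stood at 475 and 57.1 CPM, against 1507 and 169 CPM in neutrophils, and Ccl2, the ligand of Ccr2, at 220 and 41.1 CPM. Ccl5 and Ccl6 stood at 205 and 275 CPM and 706 and 1000 CPM. After thinning, Ccl5 was seen in 8.32% and 25.8% of classical cells and in 9.59% and 22.7% of B cells. The part of free RNA in its level was not tested. The receptor Ccr1 (102 and 26.8 CPM) was lower, and Cxcr4 (30.3 and 98.2 CPM) and the fractalkine receptor Cx3cr1 (91.6 and 214 CPM) were higher. Complement factor B, Cfb, stood at 130 and 14.3 CPM.

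Other large differences were in genes on none of the interferon lists. Spon1, a matrix protein, stood at 290 and 3.57 CPM, from 841 and 2 UMIs (log2 ratio -5.10, -9.39 to -4.48), and was seen in 47.9% and 1.11% of cells. Pde7b, a phosphodiesterase that breaks down cyclic AMP, stood at 1073 and 116 CPM. The metabolic lists were flat. None of 21 glycolysis and 26 oxidative phosphorylation genes was 2-fold different, with median log2 ratios of 0.06 and -0.07. Of the 22 transcription factors of the lineage, 1 was at least 2-fold higher, Irf4, at 11.7 and 58.9 CPM, and none was 2-fold lower. Both counts are at or below the shares of all genes at that minimum.

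**Figure D5:**
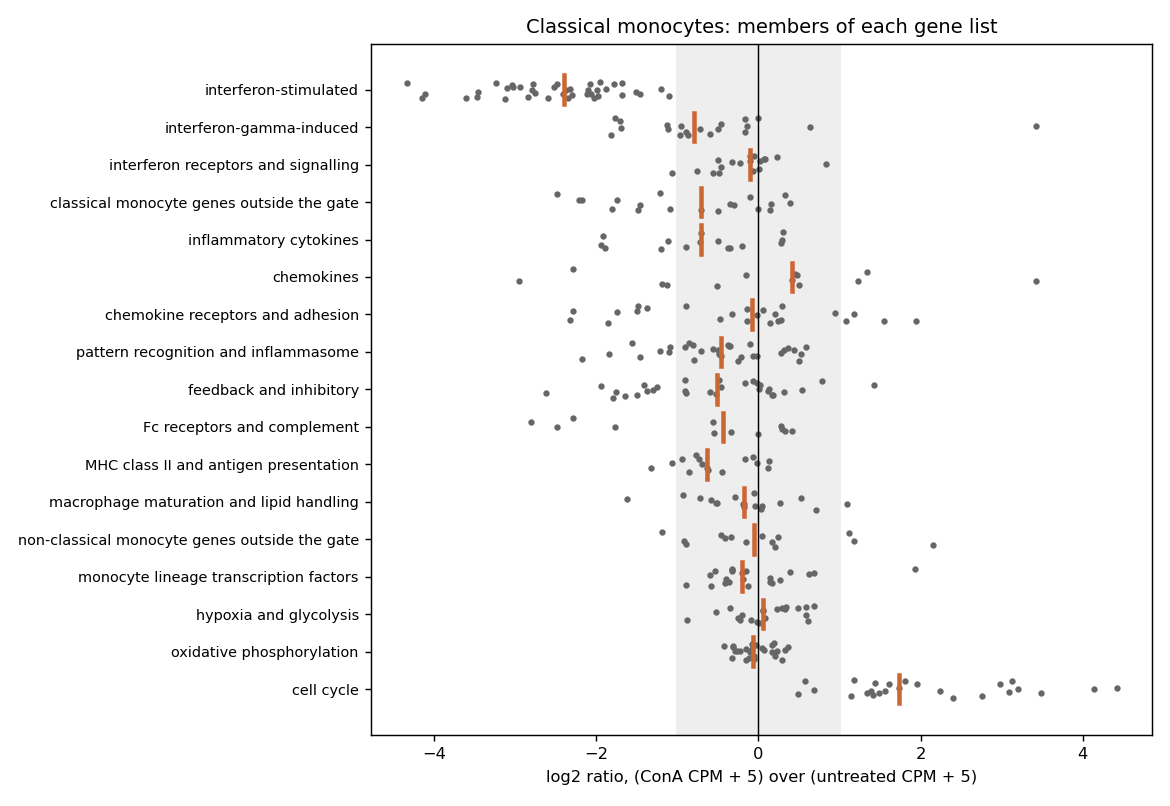
Log2 ratio of each measured member (grey points, jittered vertically) and list median (bar) in classical monocytes, with the shaded band inside 2-fold. The interferon-stimulated points all lie left of the band, with a median of -2.40, and the metabolic lists lie near 0.

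Part of the signal of the genes with the largest ratios toward ConA came from few cells. Without each gene's richest 1 in 30 cells, 76 of the 88 higher genes stayed at least 2-fold higher. This setting was chosen after seeing the data. It sets aside only 18 untreated and 3 ConA cells for each gene. It therefore cannot tell whether a signal rests on a few more cells, such as the 9 ConA cells with Mki67 and Top2a counted below. Of 25 measured cell cycle genes, 22 were at least 2-fold higher and 0 lower, against 5.75% and 4.76% of all genes at the list minimum, with a median log2 ratio of 1.73. Without each gene's richest 1 in 30 cells 14 were higher. Mki67, a mark of dividing cells, stood at 9.98 and 132 CPM. At least 2 UMIs of Mki67 and Top2a together were found in 7 of 526 untreated cells (1.33%, 0.537 to 2.72) and 9 of 90 ConA cells (10.0%, 4.68 to 18.1). The neutrophil protease genes Elane (3.44 and 479 CPM) and Prtn3 (33.7 and 271 CPM) were highest in the same cells. A total of 97.4% of UMIs of Elane, Prtn3, Mpo and Ctsg came from 3 ConA cells, each of which also met the dividing-cell count. Without the highest doublet scores the log2 ratios of Elane, Prtn3, Stmn1 and Top2a were -0.26, -1.54, -0.46 and -0.43. Other higher genes were spread over more cells. With the cells rich in few genes left out (12 untreated and 14 ConA cells), 87 genes were still at least 2-fold higher, by count and not by name. Itga1, a collagen-binding integrin chain, stood at 26.9 and 118 CPM and was seen in 11.0% and 33.3% of cells, and Specc1 at 35.1 and 125 CPM in 12.4% and 44.4%. These last were named after their values were seen. The haemoglobin genes Hbb-bs (1196 and 8892 CPM) and Hba-a1 (595 and 4141 CPM) are products of red cells. Over all kept cells Hbb-bs stood at 4830 and 24803 CPM. It was seen in 93.2% and 100% of classical cells, and 3 ConA cells held 76.8% of the haemoglobin UMIs. In the untreated library 1 cell held 64.4% of them.

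A few genes were picked for the largest ratio between classical and non-classical monocytes in both libraries, so their values are a description. Mmp8, a collagenase, stood at 173 and 87.5 CPM against 24.7 and 11.5 CPM, and Cd14, a co-receptor for lipopolysaccharide, at 104 and 80.4 CPM against 20.6 and 7.65 CPM. Fabp4, a fatty acid carrier (1.38 and 1.79 CPM against 204 and 237 CPM), and Pparg, a lipid-sensing nuclear receptor (15.5 and 1.79 CPM against 265 and 386 CPM), were higher in the non-classical cells.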

How the data were processed

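The 2 droplet libraries of CD45+ mouse liver cells, 1 untreated and 1 ConA, are described in the report. Kits named in the labels' protocols are 10x 3' version 3.1. The authors deposited matrices of UMI counts, which per the file headers came from software 8.0.1. Cell Ranger 6.0.1, Seurat 4.3.0 and the build mm39 stand in the submitters' processing notes. A barcode was kept from 500 UMIs and 300 genes up, with mitochondrial UMIs of 10% or less. Classical monocytes were then selected on the measured counts by the rule in the report, and UMIs were summed per class and library. Members and lists were chosen with earlier results of these data known. Named genes were, per direction, the 12 with the largest ratio past the minima and 4 per list. Lyz2, Plac8 and Ifit1 were named after their values were seen. Genes of the rule are given as a description. Intervals are exact at 95%, conditional Poisson for ratios and Clopper-Pearson for shares. Doublets were left in, with an alternative by Scrublet scores. The scripts were tested on simulated counts. Python 3.11.15, scipy 1.17.1 and scanpy 1.11.5 were used. Promoter orientation was checked against GENCODE transcripts. With 1 library a group no test was made.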

Additional observations from a re-analysis of the deposited data

How the results depend on the processing

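Both shares of classical monocytes stayed within their intervals under the 11 other settings of the rule and cell filters, with log2 ratios of -2.62 to -2.42 among kept cells and -0.61 to -0.40 among the gated classes. The exception among kept cells is to require only 3 markers and Csf1r, which gave -2.19, or only 3 markers, which gave -2.08, both outside the interval of -2.90 to -2.23. The median of the interferon-stimulated list ranged from -2.76 to -2.06 and kept its direction. The counts of genes depend on the minima. At no minimum level 493 genes were lower and 605 higher, and after thinning cells to 1000 UMIs before gating 126 and 18. The higher count was 50 with a constant of 20 CPM, 55 at 100 CPM or more and 161 when each gene lost its richest 1 in 30 cells, a setting chosen after seeing the data. It was 192 with free RNA subtracted at the share of Ighm, also chosen after seeing the data, and Hbb-bs was then 9.87. The cytokine median was -1.74 in thinned cells and the MHC class II median -0.19 without Csf1r required. The chemokine median ran from -0.62 to 0.49 and has no stable direction. Of the genes higher in ConA cells, 10 values turned below 0. Without the highest doublet scores Elane was -0.26, Stmn1 -0.46, Top2a -0.43 and Prtn3 -1.54. Without the cells rich in few genes, chosen after seeing the data, Stmn1 was -0.10, Mki67 -1.09, Top2a -0.033 and Prtn3 -1.33. Mki67 was -0.079 in thinned cells and Prtn3 -0.32 without its richest 1 in 30 cells. Leaving out the richest cells removes few-cell signals by construction, and for the doublet and thinning settings the cause was not tested. The 90 ConA cells limit the precision of every value. No paired analysis was possible because each group is 1 library.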

Other observations

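The list of genes induced by tissue dissociation had 4 members at least 2-fold lower and 4 at least 2-fold higher of 21 measured, against 4.76% and 5.75% of all genes at the same minimum, with a median log2 ratio of -0.62, and summed to 9420 and 6288 CPM. The feedback and inhibitory list had 10 lower, above the share of all genes, and 1 higher, below it, of 30 measured. Cd300lf, an inhibitory receptor of myeloid cells, stood at 125 and 16.1 CPM, Socs3, which blocks cytokine signalling, at 200.03 and 60.7 CPM and Hpgd, which degrades prostaglandins, at 35.5 and 104 CPM. Of 31 pattern recognition genes, 7 were at least 2-fold lower, above the 4.76% of all genes, and 0 higher. Myd88, the adaptor of Toll-like receptors, stood at 223 and 58.9 CPM and Clec4e, the receptor Mincle, at 171 and 33.9 CPM.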
